A study of Mus musculus with 4 samples.

Results

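Polycomb proteins keep genes silent by marking histones. The Polycomb repressive complex PRC2 methylates histone H3 at lysine K27 through the enzymes EZH1 or EZH2, which work only together with EED and SUZ12. PRC1 attaches ubiquitin to histone H2A through RING1 or RNF2, and its CBX subunits read the mark that PRC2 writes. In T cells these complexes are known for holding lineage and effector genes in check until the cell is activated. The 10 genes described here encode the PRC2 enzymes Ezh1 and Ezh2, the PRC2 core subunits Eed and Suz12, the PRC2 partner Jarid2, the PRC1 subunits Ring1, Rnf2, Bmi1 and Cbx7, and Kdm6b, a demethylase that removes the PRC2 mark. They were chosen by symbol, and all 10 were found among the 55536 mouse genes of the deposited tables.

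Total RNA was sequenced from splenic T cells of male B6CASTF1/J mice, 66 days old and virgin, from a cross of a C57BL/6 female with a CAST Eij male. The labels name the antigen CD3, and each library used 300 ng of RNA with ERCC spike-ins. The design has 1 group of 4 biological replicates, called libraries 1 to 4, and no second condition. All 4 samples carry a single donor identifier and separate sample identifiers, so whether they are separate animals is not given, and the tests concern the spread between these samples, which may be technical. The total depth was 14584388 to 17335895 estimated counts per library. All 12 pan-T marker genes were present, with a summed level of 3607 to 3716 TPM, the deposited level per length of RNA. Genes that mark other cells were less even. The 12 B cell markers summed to 16.2, 20.4, 15.0 and 169 TPM in libraries 1 to 4, the 8 erythroid markers to 35.4, 62.6, 15.8 and 634 TPM, and no gene of either list was at 0 in all libraries. Both lists were far higher in library 4 than in the other libraries. The neutrophil markers summed to 11.4 to 37.3 TPM, highest in library 2, the monocyte and macrophage markers to 31.8 to 39.3 TPM, the natural killer markers to 16.8 to 24.8 TPM and the dendritic markers to 2.34 to 7.08 TPM.

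All 10 Polycomb genes were expressed in every library. Mean levels ran from 9.35 TPM for Ring1 to 56.3 TPM for Kdm6b, and the median coding gene with a mean of at least 1 TPM stood at 12.9 TPM over 10162 such genes. Kdm6b stood above 90.0% of those genes and Ring1 above 39.8%. The order from high to low was Kdm6b, Eed, Cbx7, Jarid2, Ezh1, Suz12, Rnf2, Ezh2, Bmi1 and Ring1. Of the 9 neighbouring pairs in that order, 5 had the same sign in all 4 libraries, and in 7 the ranges over the libraries overlapped. The exact two-sided sign-flip permutation test cannot go below a p of 0.13, as rounded, with 4 libraries, so no step in this order could pass a threshold of 0.05. The 4 pairs that changed sign between libraries were Eed and Cbx7, Cbx7 and Jarid2, Ezh1 and Suz12, and Ezh2 and Bmi1.

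**Figure D1:**
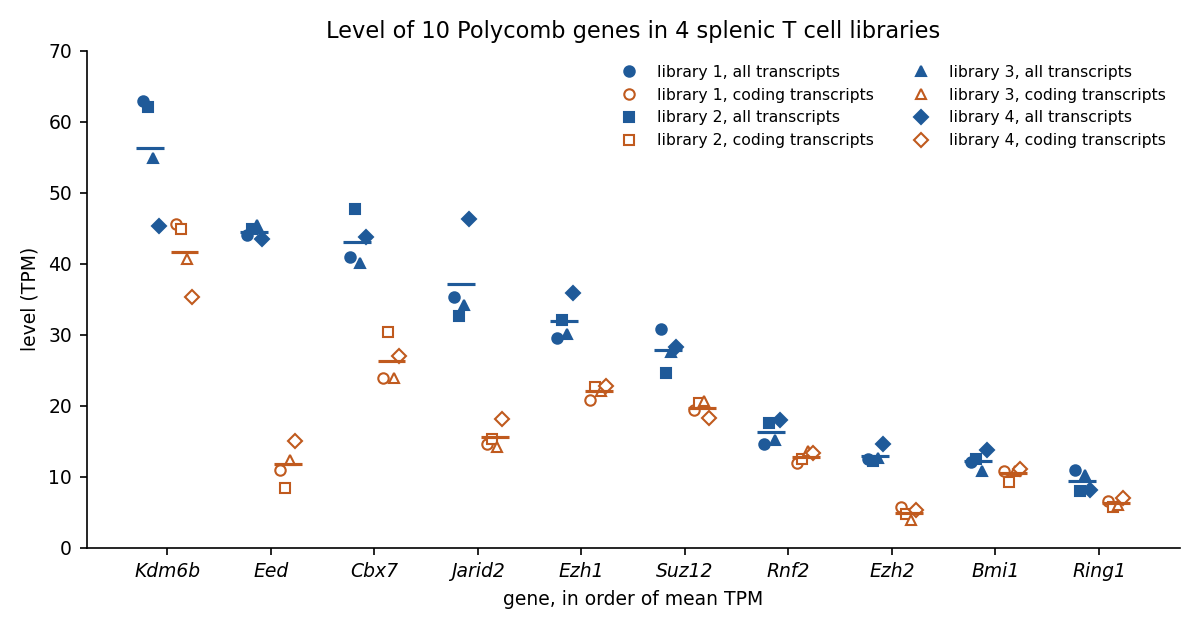
Level of each gene in TPM (vertical axis) in each of 4 libraries (symbols), for all its transcripts (filled) and for its protein-coding transcripts alone (open); horizontal lines are means of the 4 libraries. Eed has the second highest level by all transcripts (44.5 TPM) and the seventh by coding transcripts (11.8 TPM).

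Ezh1 and Ezh2 are alternative catalytic subunits of PRC2, and Ezh2 is the one known to be high in dividing cells. Ezh1 lies on chromosome 11 (chr11:101191115-101226463, minus strand, mm10) and stood at 29.6, 32.1, 30.2 and 35.8 TPM in libraries 1 to 4 (mean 31.9 ± 2.81, SD, n = 4). Ezh2 lies on chromosome 6 (chr6:47530139-47595341, minus strand) and stood at 12.6, 12.3, 12.6 and 14.6 TPM (mean 13.0 ± 1.06, SD, n = 4). Ezh1 was higher in 4 of 4 libraries, and the ranges did not overlap. The ratio of Ezh1 to Ezh2 averaged 2.46 and ran from 2.35 to 2.62, a difference of 1.23 ± 0.0660 (SD, n = 4) in log2(TPM + 1). The exact sign-flip permutation test gave p = 0.13, the smallest that 4 libraries allow, and an adjusted p of 0.188 over the 15 pairs tested. Counted over protein-coding transcripts alone the ratio was larger, 4.54 on average and 3.61 to 5.55 over the libraries. Of 12 proliferation genes fixed as a list, 8 had a mean of at least 1 TPM and 3 of at least 10 TPM, with a median of 1.53 TPM. The list summed to 122 to 149 TPM, most of it from those 3 genes. Of 11 tested, none was called as varying between libraries, near the 1.40% of all genes tested.

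Protein-coding transcripts held 69.4% ± 4.01 (SD, n = 4) of the Ezh1 TPM and 38.2% ± 5.90 (SD, n = 4) of the Ezh2 TPM. As shares of estimated counts, which are not per length, they held 94.3% of Ezh1 and 63.8% of Ezh2. Of the Ezh2 level, 40.4% fell to 4 transcripts annotated with a retained intron and 17.8% to 4 annotated for nonsense-mediated decay, a pathway that destroys RNA with an early stop codon. The leading Ezh2 transcript was Ezh2-213, a retained-intron RNA of 500 nucleotides at 1.23, 2.41, 4.45 and 3.61 TPM. The leading coding transcript, Ezh2-201 with 20 exons, stood at 3.74, 2.84, 2.50 and 1.45 TPM. Ezh2-201 was the higher in libraries 1 and 2 and Ezh2-213 in libraries 3 and 4. Ezh2 rests on few reads, with 256 to 302 estimated counts per library for all 15 transcripts.

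Ezh1 was divided between the near-identical coding transcripts Ezh1-202 (4207 nucleotides) and Ezh1-203 (4193 nucleotides), each with 21 exons. Ezh1-203 stood at 8.72, 12.8, 16.2 and 16.0 TPM in libraries 1 to 4, and Ezh1-202 at 6.03, 3.78, 0 and 0 TPM. A second deposited quantification placed them the other way round, with Ezh1-202 at 18.2, 19.9, 18.8 and 0.375 TPM and Ezh1-203 at 0.0190, 0.159, 0.00994 and 19.7 TPM. The deposited bounds of the first quantification overlapped in library 1, at 2.21 to 13.4 TPM for Ezh1-202 and 0.349 to 11.6 TPM for Ezh1-203. The split between these transcripts is therefore uncertain. The summed coding level of Ezh1 was even, at 20.8, 22.7, 22.0 and 22.8 TPM. Ezh1-201, another coding transcript with 15 exons, kept 19.4% ± 0.632 (SD, n = 4) of the gene.

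Eed, which binds the methyl mark and stimulates the enzyme, lies on chromosome 7 (chr7:89954654-89980983, minus strand). It stood at 44.1, 44.9, 45.5 and 43.5 TPM (mean 44.5 ± 0.869, SD, n = 4), even in the first quantification. Its counts were less even, at 33.6, 29.0, 34.4 and 32.2 CPM, and the second quantification put it at 52.7, 51.2, 51.7 and 64.6 TPM. Protein-coding transcripts held 26.5% ± 6.55 (SD, n = 4) of the Eed TPM, the lowest TPM share of the 10 genes (48.1% of counts), and 6 retained-intron transcripts held 73.5%. The second quantification gave 29.3% to coding and 64.6% to retained-intron transcripts. The coding transcripts together stood at 11.0, 8.48, 12.4 and 15.1 TPM, lowest in library 2 and highest in library 4. Eed-201, the single Eed coding transcript with a complete annotated coding sequence, stood at 6.74, 3.52, 6.74 and 5.59 TPM. The leading transcript was Eed-207, a retained-intron RNA of 703 nucleotides, at 8.55, 11.3, 8.23 and 7.45 TPM. The Eed values rest on 468 to 564 estimated counts per library.

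The RNA boundary that sets Eed-207 apart from Eed-201 is shown because the 2 transcripts share sequence up to it. Both share the last 30 bases of an exon (lower case; exon 8 of 12 in Eed-201 and exon 6 of 6 in Eed-207; chr7:89964729-89964758, minus strand, mm10). The 30 bases after it are in capitals. In Eed-201 they are the start of the next exon, and in Eed-207 they are the intron, which that transcript reads for 135 bases before it ends.
Eed-201 spliced: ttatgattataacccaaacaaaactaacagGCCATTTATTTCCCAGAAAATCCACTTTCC
Eed-207 retained: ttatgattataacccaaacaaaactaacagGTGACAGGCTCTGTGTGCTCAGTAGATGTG
The first bases of the retained stretch are the GT that opens most introns.

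Suz12, the scaffold subunit of PRC2, lies on chromosome 11 (chr11:79993106-80034123, plus strand). It stood at 30.8, 24.7, 27.6 and 28.3 TPM (mean 27.8 ± 2.52, SD, n = 4), with 71.3% ± 9.23 (SD, n = 4) of the TPM in coding transcripts. Suz12-201, a coding transcript with 16 exons, led in both quantifications, at 14.9, 18.4, 16.3 and 14.6 TPM in the first. The retained-intron transcript Suz12-205 varied more, at 8.90, 3.17, 4.32 and 8.28 TPM, and was high in libraries 1 and 4. By gene totals Eed exceeded Suz12 in 4 of 4 libraries, by 0.66 ± 0.142 (SD, n = 4) in log2(TPM + 1). By coding transcripts the order was the reverse in 4 of 4 libraries, at −0.72 ± 0.376 (SD, n = 4). With complete coding sequences only it was −1.67, and in CPM (counts scaled to the library total, not per length) −1.45. All 4 comparisons gave p = 0.13 in the exact permutation test.

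Jarid2, a DNA-binding partner that guides PRC2, lies on chromosome 13 (chr13:44729474-44921643, plus strand). It stood at 35.4, 32.6, 34.2 and 46.4 TPM (mean 37.1 ± 6.27, SD, n = 4), highest in library 4 and outside the range of the other libraries there. Its counts did not share that shape, at 122, 119, 123 and 123 CPM. The coding transcript Jarid2-208 (5997 nucleotides, 18 exons), which led the first quantification, stood at 11.0, 9.05, 11.2 and 10.4 TPM. Short transcripts carried the higher level of library 4. Jarid2-213, of 344 nucleotides, stood at 0, 0.580, 0 and 4.26 TPM, and Jarid2-202, of 456 nucleotides, at 4.69, 1.89, 3.42 and 5.86 TPM. A short RNA adds more to TPM per read than a long one. The second quantification listed both at 0 in all libraries and gave 9.09, 10.5, 14.1 and 16.6 TPM to another short transcript, Jarid2-204 (476 nucleotides), which the first listed at 0. Coding transcripts held 42.2% ± 3.32 of Jarid2 in the first and 59.4% ± 3.28 in the second quantification (SD, n = 4 each).

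The catalytic pair of PRC1 was lower than Eed, Jarid2, Ezh1 and Suz12 by mean TPM of the gene, but Rnf2 stood above Ezh2. By coding transcripts Rnf2 (12.9 TPM) also stood above Eed (11.8 TPM). Ring1 (chr17:34020792-34024680, minus strand) stood at 11.0, 7.97, 10.3 and 8.2 TPM (mean 9.35 ± 1.49, SD, n = 4). Rnf2 (chr1:151458004-151500955, minus strand), which encodes the ligase also called RING1B, stood at 14.6, 17.6, 15.2 and 18.1 TPM (mean 16.3 ± 1.71, SD, n = 4). Rnf2 exceeded Ring1 in 4 of 4 libraries, and by first-quantification TPM Ring1 was low in libraries 2 and 4, in which Rnf2 was high. The counts did not show that mirrored shape, at 18.7, 17.0, 17.3 and 16.6 CPM for Ring1 and 36.7, 37.2, 39.6 and 38.9 CPM for Rnf2. The difference of Ring1 minus Rnf2 was −0.38, −1.05, −0.52 and −1.05 in log2(TPM + 1), with p = 0.13 in the exact permutation test. In coding transcripts it was more even, at −0.92 ± 0.137 (SD, n = 4). The sum of both ligases was 25.6, 25.5, 25.4 and 26.3 TPM in the first quantification and 36.6, 40.8, 42.5 and 45.9 TPM in the second. Ring1-201, the single coding transcript of Ring1, stood at 6.63, 5.74, 5.98 and 7.0 TPM, and the short retained-intron transcript Ring1-202 at 2.52, 0, 2.29 and 0 TPM. Ring1-202 was listed at 0 in the 2 libraries with low Ring1.

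Rnf2 was led by the coding transcript Rnf2-201 (7 exons) at 9.07, 9.33, 7.55 and 9.38 TPM in the first quantification. The second was led by the processed transcript Rnf2-202 at 6.69, 9.56, 8.59 and 14.5 TPM, which the first put at 1.80, 4.44, 0 and 4.33 TPM. Rnf2 shares 158 bases at its end with the opposite-strand gene Trmt1l, a gene at 10.8 TPM on average, and it contains the unreviewed same-strand gene Gm36527 at 6.06 TPM. The library kit keeps strand, per the labels, and whether the counting used strand is not given in the sources used here, so reads of the overlaps are uncertain.

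Bmi1, which encodes the PCGF4 subunit that pairs with the ligases, lies on chromosome 2 (chr2:18677018-18686629, plus strand). It stood at 12.1, 12.5, 10.8 and 13.8 TPM (mean 12.3 ± 1.22, SD, n = 4) and had the highest coding share of the 10 genes, 86.1% ± 11.0 (SD, n = 4). Its coding level was 10.8, 9.32, 10.8 and 11.1 TPM, lowest in library 2. Bmi1 and Pcgf2 encode close relatives that occupy the same place in PRC1. Pcgf2 stood at 1.16, 1.06, 1.34 and 0.990 TPM, so Bmi1 was on average 11.1 times as high, from 8.08 to 13.9 times, with no overlap and p = 0.13 in the exact permutation test. That ratio rests on 24 to 30 Pcgf2 counts per library and was 3.50 on average, from 2.91 to 4.09, in the second quantification, where Pcgf2 stood at 4.78 ± 0.962 TPM (SD, n = 4).

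Cbx7, a subunit that reads the PRC2 mark, lies on chromosome 15 (chr15:79915807-79971119, minus strand). It stood at 40.9, 47.7, 40.2 and 43.8 TPM (mean 43.1 ± 3.43, SD, n = 4), the highest of the 5 CBX genes that serve PRC1.

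Both quantifications assigned most of the Cbx7 TPM to 2 annotated transcripts, at close levels. The coding transcript Cbx7-203 (2899 nucleotides, 7 exons) stood at 17.8, 21.8, 19.6 and 21.3 TPM. The retained-intron transcript Cbx7-207 (6057 nucleotides, 4 exons) stood at 17.1, 17.3, 16.2 and 16.7 TPM. Cbx7-203 was higher in each library of the first quantification. In the second the order turned, with 18.3 ± 1.81 TPM for Cbx7-203 and 21.7 ± 1.47 TPM for Cbx7-207 (SD, n = 4 each). Because Cbx7-207 is the longer RNA it took 59.0% of the Cbx7 counts against 39.1% of the TPM. The boundary between both is shown for that reason. They share the last 30 bases of exon 4 (lower case, chr15:79921372-79921401, minus strand, mm10). The capitals are the next exon in Cbx7-203 and the intron in Cbx7-207. The last exon of Cbx7-207 runs 5559 bases past that boundary, close to the end of the gene. That stretch therefore spans the region of the later exons of Cbx7-203 as well as introns.
Cbx7-203 spliced: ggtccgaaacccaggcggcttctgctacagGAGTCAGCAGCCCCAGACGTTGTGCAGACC
Cbx7-207 retained: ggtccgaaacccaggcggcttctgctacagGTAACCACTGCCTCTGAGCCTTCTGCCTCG
Here too the retained stretch opens with GT. Cbx7 also shares 100 bases at its end with Apobec3, an opposite-strand gene at 45.5 TPM on average.

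Kdm6b, the demethylase, lies on chromosome 11 (chr11:69398508-69413675, minus strand). It stood at 62.9, 62.1, 54.8 and 45.4 TPM (mean 56.3 ± 8.14, SD, n = 4), high in libraries 1 and 2 and lowest in library 4. Its relative Kdm6a, on the X chromosome, stood at 32.3, 29.5, 34.1 and 38.7 TPM and was highest in library 4. The Kdm6a copy on the Y chromosome, Uty, stood at 14.6, 13.7, 22.2 and 19.5 TPM. Kdm6b exceeded Kdm6a in 4 of 4 libraries with no overlap of the ranges, by 0.94, 1.05, 0.67 and 0.22 in log2(TPM + 1), and p was 0.13 in the exact permutation test. In coding transcripts the ratio of Kdm6b to Kdm6a averaged 2.95. Kdm6b-201, the single coding transcript (6654 nucleotides, 23 exons), stood at 45.6, 44.8, 40.6 and 35.3 TPM, and the processed transcript Kdm6b-202 at 17.3, 17.2, 14.2 and 10.1 TPM. Both transcripts were lowest in library 4.

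**Figure D2:**
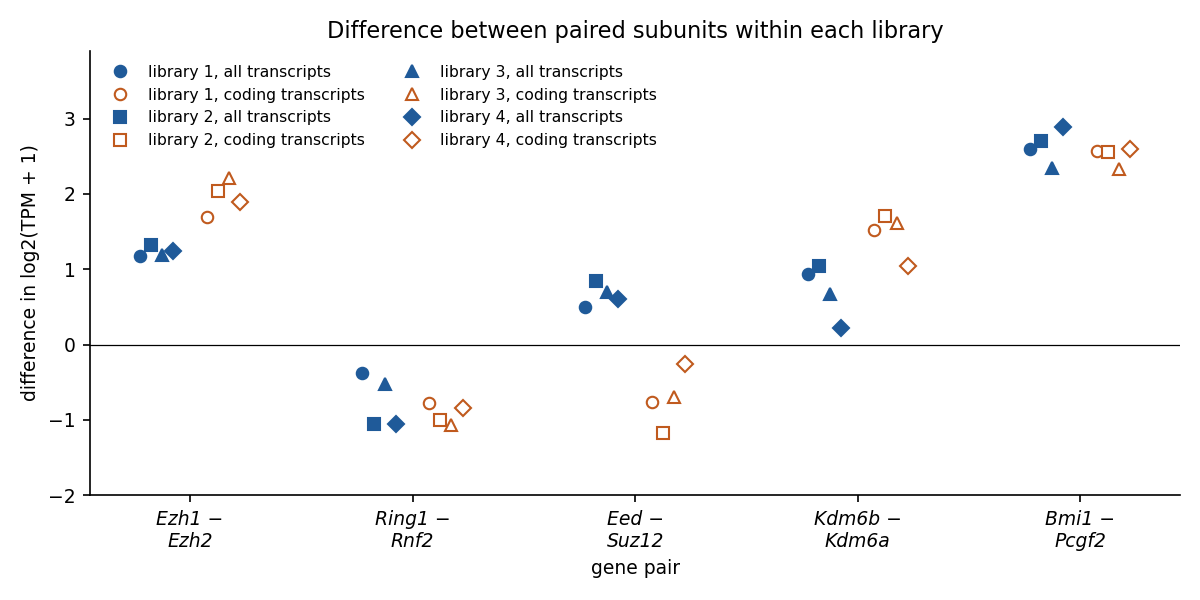
Difference within each library (symbols) between the 2 genes of a pair, in log2(TPM + 1) (vertical axis), for all transcripts (filled) and for coding transcripts (open). Eed minus Suz12 lies above 0 by all transcripts (mean 0.66) and below 0 by coding transcripts (mean −0.72); the other means shown keep their sign.

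Variation between libraries was tested over all genes with the edgeR goodness-of-fit test, which asks whether a gene's counts spread more than those of genes of like abundance. At a Benjamini-Hochberg adjusted p under 0.05, 183 of 13118 genes tested, or 1.40%, varied. Of the 10 Polycomb genes, all of which passed the filter on low counts, 1 varied, and this was Kdm6b. Kdm6b had 5091, 5390, 4591 and 3476 estimated counts, and its scaled log2 CPM lay 0.20 above, 0.14 above, 0.04 below and 0.30 below its mean in libraries 1 to 4. The edgeR adjusted p was 0.0440. That call was close to the threshold and was lost without any single library, with an adjusted p of 0.324, 0.0528, 0.0582 and 1.00 by edgeR without library 1, 2, 3 and 4. It was also lost with no filter on low counts (edgeR adjusted p = 0.0538) and with 1 common dispersion for all genes (edgeR adjusted p = 0.610), and it was kept with DESeq2 size factors (adjusted p = 0.0433) and with the counts of the second quantification (edgeR adjusted p = 0.0191).

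Library 4, in which Kdm6b was lowest, was also the library in which all 12 B cell markers were highest (169 TPM summed, against 15.0 to 20.4) and the 8 erythroid markers summed to 634 TPM. The pan-T markers summed to 3607, 3716, 3673 and 3643 TPM, and none of 12 was called, near the 1.40% of all genes tested. Of 16 early response genes, which rise within minutes of stimulation or handling, 15 were tested. Of these, 3 varied by the edgeR test, against 1.40% of all genes tested, and 6 of the 16 were highest in library 4. Fos stood at 57.6, 83.1, 117 and 141 TPM and Fosb at 24.5, 34.4, 42.9 and 65.0 TPM, and the other called gene, Hspa1b, at 0.580, 2.80, 3.51 and 2.53 TPM. Fos and Fosb were lowest in library 1 and highest in library 4, where Kdm6b was highest and lowest, respectively, while Hspa1b was highest in library 3 and Jun (139, 151, 152 and 132 TPM) was lowest in library 4. The part of these cells and of handling in the Kdm6b result was not tested. In bulk RNA, fewer cells with Kdm6b and less Kdm6b RNA per cell cannot be told apart.

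The other 9 Polycomb genes gave unadjusted p-values of 0.437 to 0.987 in the edgeR test. The log2 CPM of the 10 genes spanned 0.168 between the lowest and highest library at the median. The same median was 0.176 over the 6135 genes of like abundance, of which 72 varied, and 0.270 over all genes tested. Jarid2 had the narrowest span at 0.0442 and Kdm6b the widest at 0.493, followed by Ezh2 at 0.333. After Kdm6b the widest spans were those of Ezh2, Ring1 and Eed, which had 241 to 564 counts per library. Bmi1, with 450 to 526 counts, spanned 0.137, and Suz12, with 1214 to 1579 counts, spanned 0.199. A link between counts and span was not tested.

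**Figure D3:**
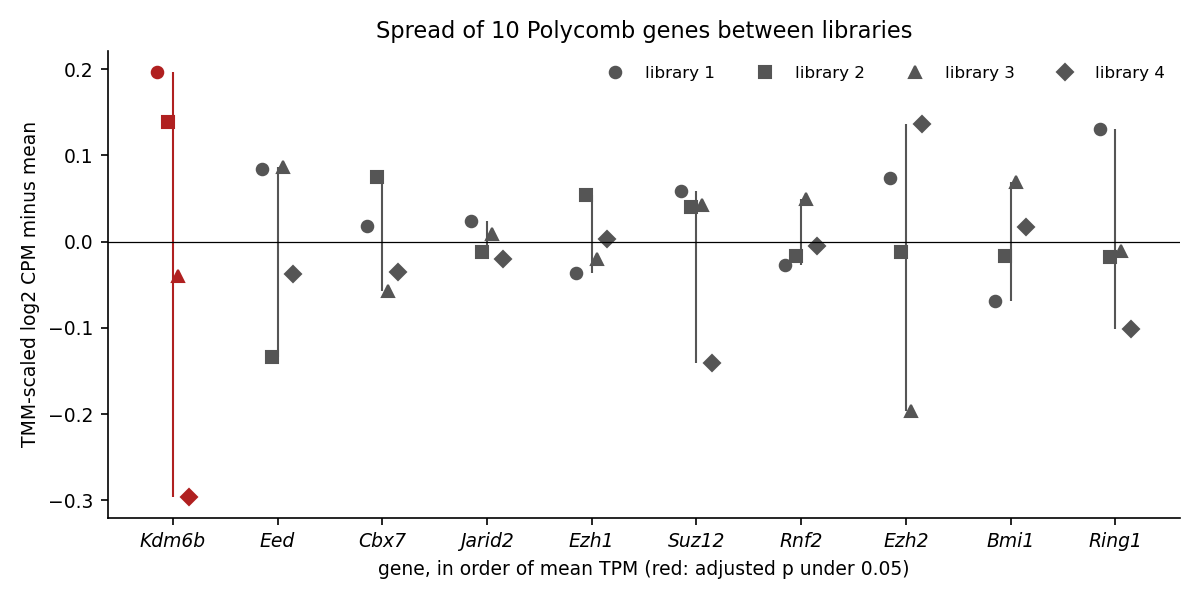
Scaled log2 CPM of each gene in each library (symbols) minus the mean of the 4 libraries (vertical axis); vertical lines join the lowest and highest library. Kdm6b (red) runs from 0.20 above to 0.30 below its mean, and Jarid2 spans 0.0442.

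The genes whose deviations over the 4 libraries were most like those of Kdm6b, by root mean square difference among 6388 tested genes with at least 10 TPM, were Urm1, Paip2b, Sap18b, Ccdc134 and Gmfg-ps. Their differences from Kdm6b ran from 0.0127 for Urm1 to 0.0256 for Gmfg-ps in log2 CPM. Urm1 stood at 18.5, 20.5, 16.8 and 15.7 TPM, and Paip2b at 22.8, 22.2, 21.3 and 18.2 TPM. All 5 were lowest in library 4, which follows from how they were chosen, and none was itself called. With 4 libraries, such likeness is a description only.

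The 10 genes hold 84 annotated transcripts, of which 42 are protein coding and 23 of those have a complete coding sequence. Coding transcripts held under 50% of the TPM in 3 of the 10 genes, Eed, Ezh2 and Jarid2. The same was true of 25.1% of 9357 expressed coding genes with more than 1 transcript, whose median coding share was 69.3%. As shares of counts the list was another: Eed at 48.1% and Cbx7 at 41.0% were under 50%, Ezh2 at 63.8% and Jarid2 at 63.7% were not, and the median of those coding genes was 84.6%. Ranked by coding transcripts, Kdm6b stayed first at 41.6 TPM and Cbx7 became second at 26.3 TPM. Ezh1 moved to place 3 at 22.1 TPM, Eed dropped from place 2 to 7, and Ezh2 moved to the last place at 4.97 TPM. By coding transcripts the 9 neighbouring pairs of the first order each kept 1 sign in all 4 libraries, and 3 of them, Eed and Cbx7, Jarid2 and Ezh1, and Ezh2 and Bmi1, were turned round. Both quantifications named the same leading transcript for 4 of the 10 genes, so single transcripts are less certain than gene sums.

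**Figure D4:**
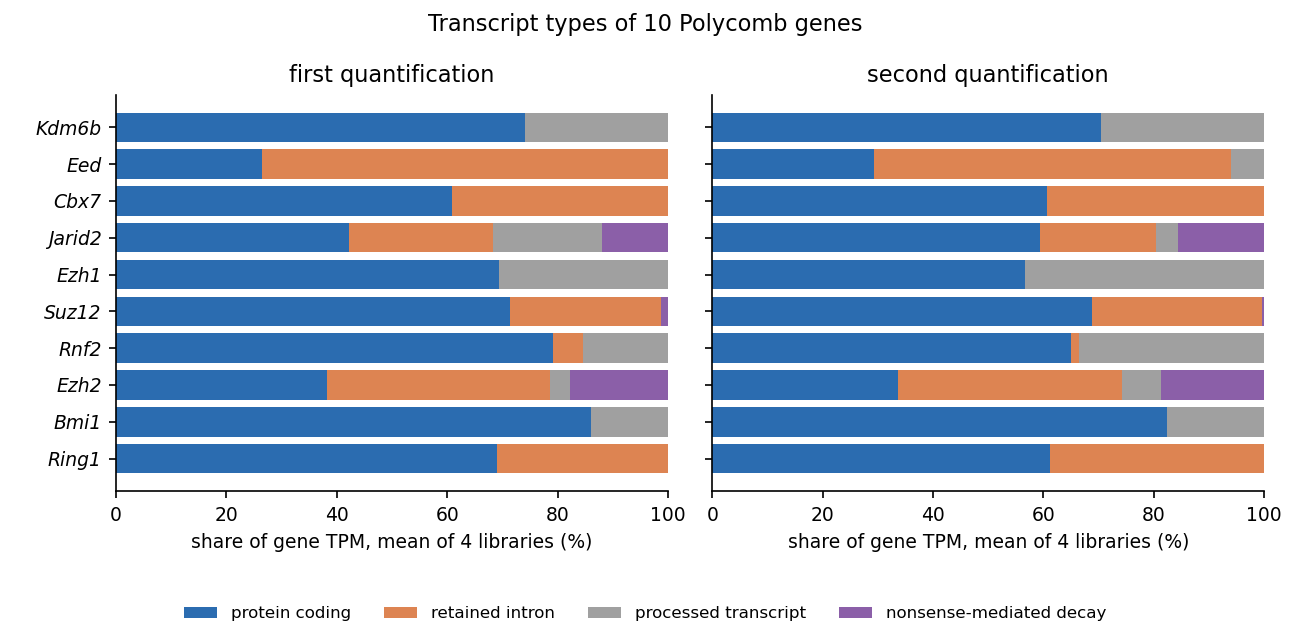
Share of each gene's TPM by annotated transcript type (horizontal axis, percent, mean of 4 libraries) in both deposited quantifications. Retained-intron transcripts hold 73.5% of Eed in the first and 64.6% in the second. Kdm6b, Ezh1 and Bmi1 have no transcript annotated with a retained intron, so this share is 0 for them whatever the reads.

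Genes that are active in many tissues often start in DNA rich in CpG. RefSeq promoter sequence (GRCm38.p6, the assembly also called mm10) was found for 9 of the 10 genes, with 2 promoters for Jarid2. In the 250 bases before the start, these 10 promoters held 12 to 37 CpG, against a median of 16 over 10277 promoters of expressed coding genes and 6 over all 32851 promoters. Of the 10, 8 were at or above the median of 16, and 66.9% of the expressed coding promoters held at least 12. The richest and the poorest are printed to show that range, with CpG in capitals. They are Suz12 with 37 CpG (chr11:79992856-79993105, plus strand), a count reached by 4.2% of expressed coding promoters, and Eed with 12 CpG (chr7:89980977-89981226, minus strand).
Suz12 promoter: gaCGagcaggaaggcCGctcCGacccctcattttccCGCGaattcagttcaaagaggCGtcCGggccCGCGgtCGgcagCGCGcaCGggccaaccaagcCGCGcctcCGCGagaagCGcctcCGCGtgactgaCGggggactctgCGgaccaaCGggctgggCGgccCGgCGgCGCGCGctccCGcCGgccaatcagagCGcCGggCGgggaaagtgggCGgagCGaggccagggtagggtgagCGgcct
Eed promoter: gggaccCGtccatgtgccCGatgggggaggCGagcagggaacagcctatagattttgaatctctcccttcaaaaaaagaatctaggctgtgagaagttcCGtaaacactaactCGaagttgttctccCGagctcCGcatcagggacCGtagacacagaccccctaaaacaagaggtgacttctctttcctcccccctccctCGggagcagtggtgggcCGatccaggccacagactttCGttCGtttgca
Both encode core subunits of PRC2 and differ most in CpG count among the promoters found. CpG counts describe sequence and were not set against levels.

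The wider Polycomb list fixed for this work held 54 genes with an identifier, 52 of which were tested. It includes Kdm6b, and this was the 1 gene that varied. That is 1.92% of those tested, near the 1.40% of all genes tested. Among PRC2 core genes the histone-binding subunits Rbbp4 at 47.3 ± 2.55 TPM and Rbbp7 at 37.9 ± 2.37 TPM stood beside Eed (SD, n = 4 each). These are gene totals. By coding transcripts Rbbp4 stood at 26.4 TPM, Rbbp7 at 37.9 TPM and Eed at 11.8 TPM. Among PRC2 partners Aebp2 at 55.4 ± 1.63 TPM and Phf1 at 44.4 ± 2.29 TPM exceeded Jarid2 (SD, n = 4 each). Of the 6 PCGF genes Pcgf5 was the highest at 20.4 ± 1.10 TPM, ahead of Bmi1, and Pcgf1 followed at 11.3 ± 1.37 TPM (SD, n = 4 each). By coding transcripts Pcgf5 averaged 11.3 TPM and Bmi1 10.5 TPM, and Bmi1 was the higher in libraries 3 and 4. Scml4 at 83.5 ± 8.05 TPM led the PHC and SCM genes, ahead of Phc3 at 28.0 TPM and Phc2 at 26.3 TPM. Usp7, a deubiquitinase found with variant PRC1, led its list at 93.9 ± 3.14 TPM (SD, n = 4), followed by Mga at 33.5 TPM and Bcor at 20.8 TPM. Of the genes that take ubiquitin off H2A, Usp16 stood at 46.9 TPM, Bap1 at 38.5 TPM and its partner Foxk1 at 38.4 TPM, and Asxl3 had 0 counts in all libraries.

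Families known to act against Polycomb were present throughout. All 8 COMPASS genes, which belong to complexes that methylate H3 at K4, and all 6 SWI/SNF genes, which remodel nucleosomes, stood at 10 TPM or more, and of these 8 and 6 genes 0 varied by the edgeR test, adjusted or at an unadjusted p under 0.05. Over all genes tested 1.40% varied by adjusted p and 4.60%, or 603, by unadjusted p, so these counts of 0 are near the background. Kmt2d at 93.6 ± 8.44 TPM and Arid1a at 103 ± 5.80 TPM led their lists (SD, n = 4 each). Kmt2c at 60.8 TPM, Kmt2a at 54.6 TPM, Smarca2 at 58.2 TPM and Arid1b at 39.9 TPM came next.

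Genes that Polycomb is known to silence had few or no reads in the first quantification. Of all 55536 genes, 23727 had a rounded count above 0 in any library, so 0 counts throughout was common among all genes. The numbers of genes at 0 in these lists were not tested against that share. Of 39 Hox genes, the body-plan regulators that are classic Polycomb targets, 27 had 0 counts in all libraries and none reached a mean of 1 TPM. The highest was Hoxb4 at 0.490, 0.250, 0.320 and 0.50 TPM, followed by Hoxa9 at 0.123 ± 0.105 TPM and Hoxa7 at 0.0625 ± 0.0435 TPM (SD, n = 4 each). All Hox genes together had at most 33 counts in a library. The second quantification differed for some: it listed 18 of the 39 at 0 in all libraries and put Hoxc4, with 4, 0, 0 and 0 counts in the first, at 8.41, 10.3, 8.76 and 9.89 TPM. Of 18 developmental factors 13 had 0 counts throughout, and Gata6 led the rest at 0.0350 TPM, with Wt1 at 0.0125 TPM on average. In the second quantification 6 of the 18 were at 0 in all libraries, none reached a mean of 1 TPM, and Pax6 was the highest at 0.594, 0.253, 0.886 and 0.772 TPM. At the Ink4 locus, a target of Bmi1 and Cbx7 in other cells, Cdkn2a had 0 counts and Cdkn2b 1 count, in library 4. A count of 0 in a library allows up to 3 counts, or 0.173 to 0.206 CPM.

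Helper and effector genes that T cells can switch on formed a graded set. Gata3 stood at 20.9, 20.5, 24.7 and 24.8 TPM, Eomes at 6.57, 6.96, 8.57 and 9.53 TPM, and Tbx21 at 4.85, 5.23, 4.82 and 5.47 TPM. The cytokine gene Il17a had 0 counts in all libraries. Of the 9 genes of this list, 5 had a mean of at least 1 TPM and 1, Gata3, at least 10. Of 6 tested, 0 varied between libraries by the edgeR test, adjusted or at an unadjusted p under 0.05, against 1.40% and 4.60% of all genes, which leaves too few genes to read anything from it.

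**Figure D5:**
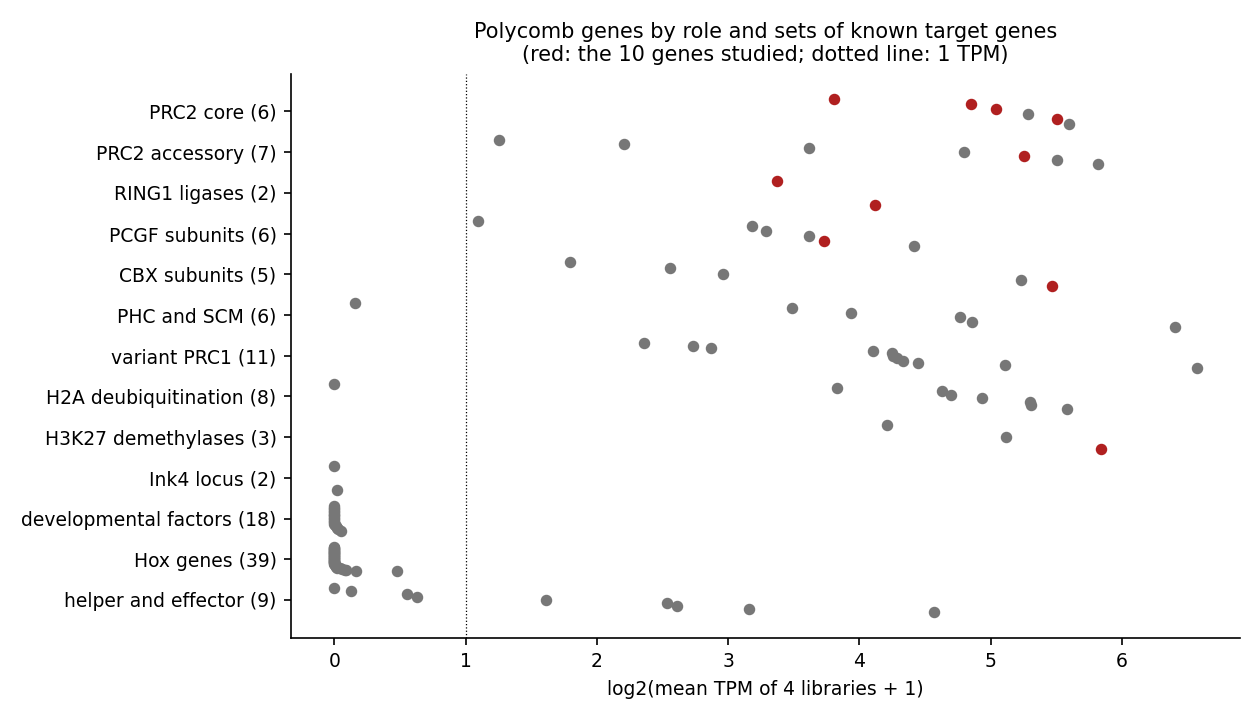
Mean level of 4 libraries in log2(TPM + 1) of the first quantification (horizontal axis) of each gene, by role, with the number of genes in brackets; red points are the 10 genes described and the dotted line is 1 TPM. All 10 lie to the right of that line, and all 39 Hox genes lie to its left.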

How the data were processed

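The build is mm10 and the annotation GENCODE M21, per the labels and the deposited file descriptions. Which aligner and quantifiers were run is not given. The deposited first quantification gives expected counts (not normalized), TPM, FPKM (not used) and, as percent, each transcript's share of its gene, per the file headers; the second gives its own counts and TPM. The authors' expected counts were rounded for the test. Reads with CAST alleles could be lost against the reference.

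Of 55536 genes, 86 had no symbol in the transcript files. Spike-ins (0.299% to 0.347% of counts) and numeric identifiers (at most 8.75e-05%) stayed out. Spread between libraries was tested by edgeR 4.0.16 (TMM, filterByExpr, trended dispersion, goodness of fit, Benjamini-Hochberg), checked on simulated data, with DESeq2 1.42.0 size factors as an alternative. The 6 gene pairs and 9 neighbours were compared in log2(TPM + 1) by exact sign-flip permutation. The result of 1 pair and of some listed genes is not reported here. Named genes were the 10 studied, the pair partners, those called and the top 3 of each Polycomb and target list with those at 0. Marker lists are given as sums. Named besides these were Jun, Hoxc4, Pax6, the overlapping genes and the genes most like Kdm6b. Hoxc4 and Pax6 were named for their level in the second quantification. Named transcripts held at least 10% of a gene in either quantification, except Jarid2-213, chosen after its values were seen. Members, lists and pairs were chosen with earlier results of these data known. Without molecular identifiers PCR copies cannot be told from separate molecules, and the floor of 3 counts covers counting error only.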

Additional observations from a re-analysis of the deposited data

Results flagged for a closer look

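Of 56 values over the 10 genes and their coding transcripts, 2 had 1 library far from the other 3, and chance alone gives about 1 in 20. Ezh2 stood at 14.57 TPM in library 4, against 12.25 to 12.61 TPM in the other libraries, with 291, 302, 256 and 292 estimated counts in libraries 1 to 4, and the edgeR test of variation did not call it. The coding level of Bmi1 stood at 9.32 TPM in library 2, against 10.82 to 11.06 TPM in the other libraries.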

How the results depend on the processing

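The count of varying Polycomb genes was 1, and became 0 with no filter on low counts, 0 with a common dispersion, and 0 to 0 without any single library. The unadjusted p of Kdm6b, 0.00058, became 0.0055, 0.00052, 0.00069 and 0.11 without library 1, 2, 3 and 4. The count over all genes was 183, and became 279 with no filter, 353 with a common dispersion, and 116 to 146 without any single library. Eed minus Suz12, 0.66 in log2(TPM + 1), turned to −1.45 in CPM, −0.72 with coding transcripts and −1.67 with complete coding sequences; the last 2 settings were chosen after seeing the data. The other gene pairs reported kept their mean direction under each alternative run. Among neighbours, 9 of 9 in place of 5 kept 1 sign with coding transcripts, where Eed minus Cbx7 turned to −1.12, Jarid2 minus Ezh1 to −0.49 and Ezh2 minus Bmi1 to −0.95; with the second quantification Eed minus Cbx7 turned to −0.0049. The transcripts that led in the first quantification had a median share of 44.4% there and 29.2% in the second, where other transcripts led 6 of the 10 genes, so a lower share follows in part from how they were chosen. The cause was not tested. Counts were fewest for Ring1 (241 to 295) and Ezh2 (256 to 302) of the 10 genes, and 4 libraries allow no exact p below 0.13. No paired comparison of conditions was possible because there is 1 group, while the gene pairs were compared within each library.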
